A study of Mus musculus with 9 samples.

Results

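The genes described here are 10 that coat lipid droplets or bring fatty acids into cells: the perilipins Plin1, Plin2, Plin4 and Plin5, the CIDE proteins Cidea and Cidec, the fatty-acid binding proteins Fabp4 and Fabp5, lipoprotein lipase (Lpl) and the fatty-acid receptor Cd36. They were taken by symbol, current or former, from a table of 33450 gene rows, and each of the 10 had 1 row there. The RNA came from whole ovaries of C57BL/6J mice aged 15 weeks, after 10 weeks on a diet. HFOB were 3 mice that became obese on a diet with 60% fat, HFLN were 3 mice that stayed lean on that same diet, and control were 3 mice on a standard chow with 16% fat. The mice on the 60% fat diet thus entered HFOB or HFLN by how they responded to it, not by assignment, and the labels name no genetic change in any group. The authors deposited 1 value per group, in FPKM (fragments scaled to the length of the transcript and the depth of the library), with a lower and an upper bound. Values of single mice were not analysed here, so how many of the 3 mice in a group carry a difference is not known, and no SD or p-value is given.

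Cells store fatty acids as triglyceride in lipid droplets, whose surface carries perilipins. Plin1 belongs to adipocytes and steroid-making cells, Plin2 is found on droplets in most cells, Plin4 is abundant in fat tissue, and Plin5 is best known from tissues that burn fatty acids, where it ties droplets to mitochondria. Cidec and Cidea move lipid between touching droplets and so enlarge them. Lpl frees fatty acids from triglyceride-rich lipoproteins at the vessel wall, Cd36 takes them up at the cell surface, and Fabp4 and Fabp5 carry them in the cytosol. In the ovary, luteal, theca and interstitial cells hold droplets rich in cholesterol esters for steroid synthesis. Several of the 10 genes are known targets of the nuclear receptors PPARG and PPARA.

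PPAR receptors bind with their partner RXR to a direct repeat called DR1. The bases before a transcription start are therefore shown for Cd36 and Plin2, where letters close to DR1 were found, and for Cidec, whose value in HFOB lay above both other groups. They were taken from RefSeq (GRCm38.p6) and read 5′ to 3′ on the strand of the gene, which is the minus strand in all 3, and capitals mark matches to the motifs searched.
Cd36: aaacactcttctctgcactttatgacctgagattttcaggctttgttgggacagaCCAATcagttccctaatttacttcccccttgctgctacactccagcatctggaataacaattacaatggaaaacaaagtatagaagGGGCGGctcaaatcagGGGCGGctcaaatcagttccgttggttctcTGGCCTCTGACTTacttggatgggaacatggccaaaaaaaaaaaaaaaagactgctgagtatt
Plin2: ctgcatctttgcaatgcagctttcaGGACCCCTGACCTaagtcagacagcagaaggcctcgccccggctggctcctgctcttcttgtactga
Cidec: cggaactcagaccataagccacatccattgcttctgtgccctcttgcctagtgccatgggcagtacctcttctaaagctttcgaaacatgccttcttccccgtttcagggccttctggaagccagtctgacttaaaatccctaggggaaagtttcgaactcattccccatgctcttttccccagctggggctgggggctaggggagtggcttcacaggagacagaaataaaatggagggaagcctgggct
The stretch of Cd36, chr5:17835897-17836146, is the 250 bases before a start that lies inside the span of the gene, and none of them is in a GENCODE transcript. That of Cidec, chr6:113435761-113436010, is the 250 bases before the outermost start. That of Plin2, chr4:86670218-86670309, is the 92 bases of its window that lie outside the gene span. The start that the Plin2 window precedes lies inside the gene span, so the bases printed end before they reach it. Positions in Plin2 are counted from that start and not from the end of the printed bases.

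Motifs were searched on both strands. DR1 was taken as AGGTCA repeated with 1 free base between the copies, exactly or with up to 2 of its 12 fixed letters different. The TATA box was TATAAA. The letters CCAAT stood for the box of that name. The GC box was searched as GGGCGG. The E-box was the palindrome CACGTG. Of the 10 genes, 6 matched the RefSeq table by symbol, with 8 windows of 250 bases. These were Cd36, Plin1, Plin2, Plin4, Cidec and Plin5, and the last 2 had more than 1 window each. Cidea, Fabp4, Fabp5 and Lpl had no window, so the counts below do not cover them. An exact DR1 was in 0 of the 8 windows and in 11 of all 32851 windows of the same length. With up to 2 letters different it was in 2 of the 8, in Cd36 at positions -63 to -51 and in Plin2 at -225 to -213 from the start, and in 3.24% of all windows. These letters overlap no other motif in either gene. CCAAT was in 4 of the 8 windows and in 33.9% of all, and the GC box was in 3 of the 8 and in 32.7% of all. Cd36 holds CCAAT at -195 to -191 and GC boxes at -109 to -104 and -93 to -88. The TATA box and the E-box were in 0 of the 8, and in 12.4% and 6.02% of all windows. The Cidec window shown holds none of these letters and is in lower case throughout. A match describes the sequence and is not a site shown to be bound.

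The deposited bounds set what can be told apart. For 9 of the 10 genes the bound lay on average between 34.2% (Plin2) and 56.0% (Cidec) of the value away from it. With bounds of that width, the intervals of a pair of groups would part only at a ratio of 2.04 for Plin2, 2.40 for Fabp4 and 3.55 for Cidec. Cidea was far less certain, with bounds 203% of the value away and a lower bound of 0 in all 3 groups. A gene was called when its fold was at least 2 on the log2(FPKM + 1) scale and the intervals of both groups did not overlap. Folds on that scale understate the difference of low genes. The status was OK in every group for all 10 genes, and all 10 reached the minimum of 1 FPKM. For each of them the intervals of every pair of groups overlapped, so the differences below are given as values and are not calls.

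**Figure D1:**
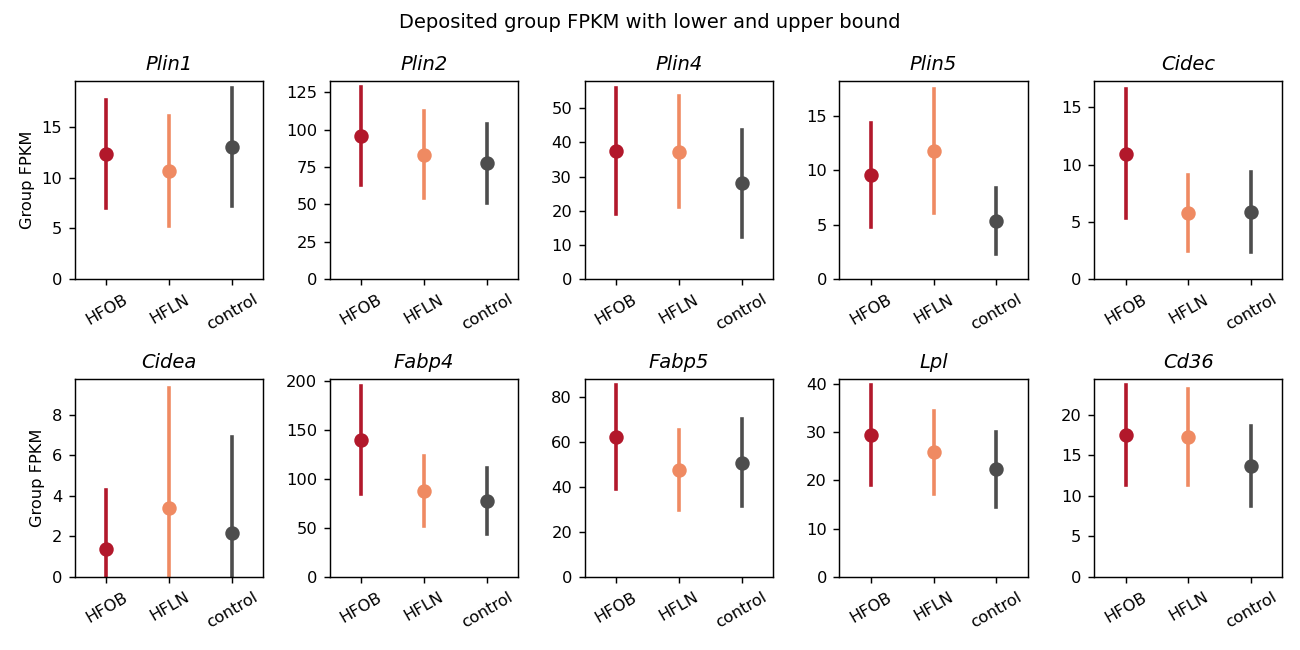
Deposited group FPKM (points) and the lower to upper bound (lines) of the 10 genes, with HFOB, HFLN and control side by side and each axis starting at 0. Cidec and Fabp4 stand highest in HFOB, Plin5 stands lowest in control, and the intervals overlap within every gene.

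Among the perilipins, the values of Plin5, Plin4 and Plin2 were higher in both diet groups than in control, and that of Plin1 was not. Plin5 (GRCm38 chromosome 17, 56111597 to 56117606, the build of all positions given) stood at 9.54 FPKM in HFOB (deposited interval 4.78 to 14.3), 11.8 in HFLN (6.09 to 17.4) and 5.34 in control (2.29 to 8.40). Both diet groups lay above the upper bound of control, and the control value lay below the lower bound of HFLN. Plin5 was 2.2 times as high in HFLN as in control and 1.79 times as high in HFOB as in control, at log2 folds of 1.01 and 0.73. Of all rows considered, 0.283% had a log2 fold as high in HFLN against control and 0.774% in HFOB against control. Between HFOB and HFLN its log2 fold was -0.28.

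Plin4 (chromosome 17, 56100587 to 56109948) stood at 37.5 FPKM in HFOB (19.2 to 55.8), 37.3 in HFLN (21.2 to 53.5) and 28.1 in control (12.5 to 43.7). Both diet groups held nearly the same value, with log2 folds over control of 0.40 in each. Its row in the table begins at 56079630, outside the gene, and spans the neighbouring gene Hdgfl2, which shares 0.294% of the exon bases of Plin4 on the opposite strand. Plin2 (chromosome 4, 86626910 to 86670217), the coat of droplets in most cells, stood at 95.9 FPKM in HFOB (63.3 to 128.6), 83.2 in HFLN (54.3 to 112.1) and 77.5 in control (51.3 to 103.7). Its row in the table runs from 86648379, inside the gene, to 86717120, outside it, and spans no other annotated gene. The values of Plin2 descend from obese to lean to chow-fed mice, with log2 folds of 0.30 in HFOB and 0.10 in HFLN against control, each value inside the intervals of the other groups. Plin1 (chromosome 7, 79721164 to 79732904), the coat that restrains lipolysis in adipocytes, stood at 12.3 FPKM in HFOB (6.96 to 17.6), 10.6 in HFLN (5.25 to 16.0) and 13.0 in control (7.22 to 18.8). Its order was thus control, HFOB, HFLN, and its log2 folds against control were -0.08 in HFOB and -0.27 in HFLN.

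Plin3, the fifth perilipin and not among the 10 genes, stood at 51.2, 47.9 and 44.1 FPKM in HFOB, HFLN and control. With it, the summed perilipin FPKM was 206.4 in HFOB, 190.8 in HFLN and 168.0 in control. Plin2 made up 46.5%, 43.6% and 46.1% of that sum in HFOB, HFLN and control, and Plin3 24.8%, 25.1% and 26.2%. The share of Plin5 was 4.62% in HFOB, 6.16% in HFLN and 3.18% in control, and that of Plin1 was 5.95%, 5.57% and 7.75% in the same groups. Plin1 was thus more abundant than Plin5 in HFOB and control and less abundant in HFLN, with intervals that overlap in every group.

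**Figure D2:**
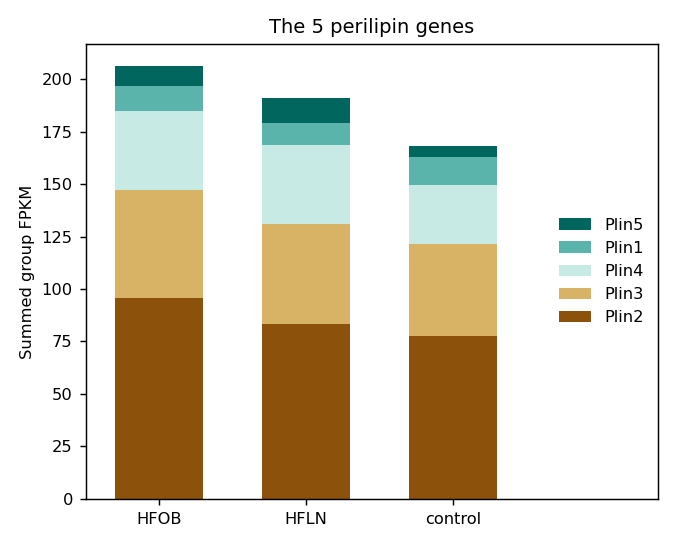
Summed group FPKM of the 5 perilipin genes in HFOB, HFLN and control, stacked by gene. The sums are 206.4, 190.8 and 168.0 FPKM, Plin2 is the largest part of each bar, and the Plin5 part is the smallest in HFOB and in control.

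The CIDE genes differed in which group was highest. Cidec (chromosome 6, 113424634 to 113435760), also known as Fsp27, stood at 11.0 FPKM in HFOB (5.36 to 16.6), 5.75 in HFLN (2.43 to 9.07) and 5.90 in control (2.42 to 9.39). The HFOB value lay above the upper bounds of both other groups, and HFLN and control nearly coincided. Cidec was 1.86 times as high in HFOB as in control and 1.91 times as high in HFOB as in HFLN, at log2 folds of 0.80 and 0.83. The ratio of Cidec to Plin1, both droplet proteins of adipocytes, was 0.894 in HFOB, 0.541 in HFLN and 0.453 in control. Cidea (chromosome 18, 67343564 to 67367794), the CIDE protein of brown fat, stood at 1.36 FPKM in HFOB (0 to 4.31), 3.38 in HFLN (0 to 9.31) and 2.19 in control (0 to 6.89). It was the lowest of the 10 genes in every group, and its row also spans the genes Impa2 and B430212C06Rik. With intervals that all reach 0, its order of HFLN, control, HFOB was not distinguishable.

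Of the binding proteins, Fabp4 had the widest difference in FPKM of the 10 genes. Fabp4 (chromosome 3, 10204342 to 10208616), a fatty-acid carrier of adipocytes, macrophages and capillary endothelium, stood at 139.3 FPKM in HFOB (84.3 to 194.4), 87.2 in HFLN (51.5 to 122.9) and 77.2 in control (43.9 to 110.6). The HFOB value lay above the upper bounds of both other groups, and the control value lay below the lower bound of HFOB. Fabp4 was 1.80 times as high in HFOB as in control and 1.60 times as high in HFOB as in HFLN, while HFLN stood at 1.13 times control. Fabp5 (chromosome 3, 10012585 to 10016610), a carrier of skin, macrophages and many other cells, stood at 62.2 FPKM in HFOB (39.1 to 85.3), 47.6 in HFLN (29.7 to 65.4) and 50.8 in control (31.4 to 70.1). Its log2 folds in HFOB were 0.29 against control and 0.38 against HFLN, with each value inside the other intervals. The ratio of Fabp4 to Fabp5 was 2.24 in HFOB, 1.83 in HFLN and 1.52 in control. Of the 50-base runs in annotated Fabp5 transcripts, 5.48% also occur in transcripts of 5 other genes, Fabp5l2 among them, so part of its reads could be assigned to such copies. The same share was 0 for Fabp4, Plin4, Plin5, Cidea, Cidec and Cd36, 0.194% for Plin1, 1.40% for Lpl and 2.57% for Plin2.

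Both uptake genes were lowest in control. Lpl (chromosome 8, 68880555 to 68906932) stood at 29.4 FPKM in HFOB (19.0 to 39.8), 25.8 in HFLN (17.2 to 34.4) and 22.3 in control (14.5 to 30.02). Cd36 (chromosome 5, 17781690 to 17888959) stood at 17.5 FPKM in HFOB (11.4 to 23.7), 17.3 in HFLN (11.3 to 23.2) and 13.7 in control (8.74 to 18.6). Lpl thus descended from HFOB to HFLN to control, whereas Cd36, like Plin4, held nearly the same value in both diet groups. Against control, the log2 folds of Lpl were 0.39 in HFOB and 0.21 in HFLN, and those of Cd36 were 0.34 and 0.32 in the same groups. Every value of both genes lay inside the intervals of the other groups.

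HFOB was set against control to ask how the ovaries of mice that became obese on the diet differ from those of chow-fed mice. Of the 10 genes, 8 had a higher value in HFOB, led by Fabp4, Cidec and Plin5, and Plin1 and Cidea had a lower one. None of the 10 was called, beside 62 of 16929 rows (0.366%), 16 of them higher in HFOB (0.0945%), and of all rows 47.0% had a log2 fold above 0. The median log2 fold of the 10 genes was 0.36, against -0.01 over all rows. In 3 of the 10 (Fabp4, Cidec and Plin5) the HFOB value exceeded the upper bound of control, as it did in 0.933% of all rows, and 0 of the 10 lay below the lower bound, as 0.662% of all rows did. That last measure was added after the values were seen.

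HFLN was set against control to ask what goes with the diet where mice stayed lean. Of the 10 genes, 7 had a higher value in HFLN and Plin1, Cidec and Fabp5 had a lower one, whereas 50.1% of all rows had a log2 fold above 0. None was called, beside 48 of 16932 rows (0.283%), 11 of them higher in HFLN (0.0650%). The median log2 fold of the 10 genes was 0.19, against 0.00037 over all rows. Plin5 alone passed a 2-fold difference and alone exceeded the upper bound of control, as did 1.15% of all rows, and 0 of the 10 lay below the lower bound, as did 0.614%. After Plin5, the highest log2 folds were those of Cidea at 0.46 and Plin4 at 0.40.

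HFOB was set against HFLN to compare mice that differed in body weight while eating 1 diet. Of the 10 genes, 8 had a higher value in HFOB and Plin5 and Cidea had a lower one, while Plin4 and Cd36 differed by log2 folds of 0.01 and 0.02. None was called, beside 33 of 16931 rows (0.195%), 19 of them higher in HFOB (0.112%), and 47.7% of all rows had a log2 fold above 0. The median log2 fold of the 10 genes was 0.19, against -0.01 over all rows. Cidec and Fabp4 exceeded the upper bound of HFLN, as did 1.42% of all rows, and 0 of the 10 lay below the lower bound, as did 0.331%. Both comparisons with control share the control values, so genes that differ in both, such as Plin5 and Plin4, do not count as 2 separate observations.

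Some of these directions depend on the scaling. Rows of a single protein-coding gene, called protein-coding rows here, held 58.2% of the summed FPKM in HFOB, 66.8% in HFLN and 53.3% in control. Rows that merge several genes are not among them, even where those genes code for proteins. When values were rescaled so that protein-coding rows sum to the same total in each group, the median log2 fold of protein-coding rows moved to 0.21 in HFLN against control, 0.08 in HFOB against control and -0.13 in HFOB against HFLN. On that scale 9 of the 10 genes had a higher value in HFLN than in control, 9 in HFOB than in control and 6 in HFOB than in HFLN, with 83.1%, 68.9% and 21.8% of all rows above 0 in the same comparisons. The signs that turned were those of Cidec and Fabp5 in HFLN against control, Plin1 in HFOB against control, and Plin4 and Cd36 in HFOB against HFLN. The medians of the 10 genes on that scale were 0.41, 0.46 and 0.07 in the same order. Before the pseudocount, rescaling shifts log2 values by 0.22 in HFLN against control, 0.093 in HFOB against control and -0.12 in HFOB against HFLN. The common total lies above the deposited sum of protein-coding rows in every group. Rescaling thus also raised all values, while the pseudocount and the minimum stayed at 1 FPKM. With the pseudocount the size of the move differs between genes, and Cidea in HFOB against control moved the other way, to -0.46. Directions in the lists that follow are on the deposited scale.

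**Figure D3:**
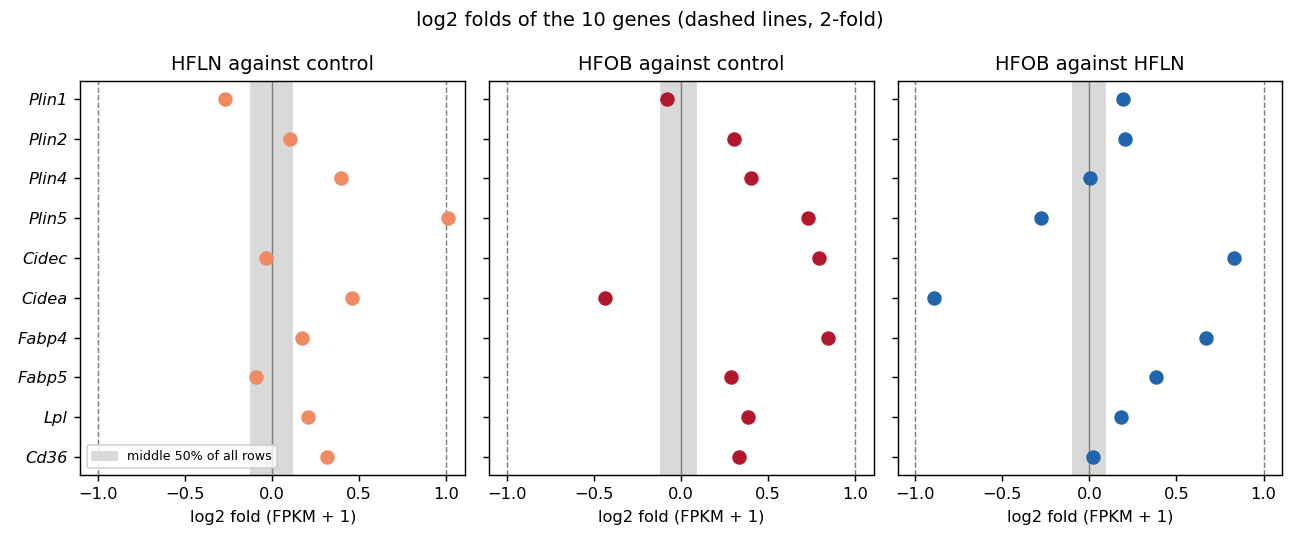
log2 folds of the 10 genes on the log2(FPKM + 1) scale in HFLN against control, HFOB against control and HFOB against HFLN. The grey band runs from the lower to the upper quartile of all rows considered and the dashed lines mark a 2-fold difference, which Plin5 passes in HFLN against control at 1.01.

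The levels of the 10 genes can be set in order, since FPKM are scaled to length. In HFOB the order was Fabp4, Plin2, Fabp5, Plin4, Lpl, Cd36, Plin1, Cidec, Plin5 and Cidea. In HFLN, Plin5 stood above Plin1 and Cidec, and the rest kept their places. In control, Plin2 and Fabp4 were level at 77.5 and 77.2 FPKM, and the ratio of Fabp4 to Plin2 was 1.45 in HFOB, 1.05 in HFLN and 0.997 in control. Neighbours in these orders had overlapping intervals in every case except Plin5 and Cidea in HFOB. Summed over the 10 genes, the FPKM were 416.0 in HFOB, 329.9 in HFLN and 296.0 in control, with Fabp4 and Plin2 as the main parts of each sum.

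Further proteins of the droplet surface, the enzymes that digest its lipid and the factors that form it made up a list of 22 genes, of which 18 reached 1 FPKM. None was called in any comparison. In HFOB against control 6 of the 18 had a higher value and 12 a lower one, with a median log2 fold of -0.02, and in HFLN against control 8 were higher and 10 lower, with a median of -0.06. In HFOB against HFLN 10 were higher and 8 lower, with a median of 0.04. G0s2, which inhibits the lipase Pnpla2, had the highest log2 fold in HFOB against control, at 36.4 FPKM in HFOB, 27.4 in HFLN and 29.6 in control. Hilpda, another inhibitor of that lipase and a droplet protein induced by low oxygen, had the lowest in both comparisons with control, at 14.1, 14.1 and 17.3 FPKM in HFOB, HFLN and control. Fitm2, which helps droplets bud from the endoplasmic reticulum, had the highest log2 fold in HFLN against control, 0.15, and the lowest in HFOB against HFLN, -0.20. The most abundant were Cavin1, a caveolar coat protein, at 135.8, 130.6 and 137.4 FPKM, and Aup1 at 92.6, 84.2 and 93.0 FPKM, in HFOB, HFLN and control.

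Of 21 further genes for binding, entry and activation of fatty acids, 12 reached 1 FPKM and none was called. In HFOB against control 5 were higher and 7 lower, with a median log2 fold of -0.02. In HFLN against control 7 were higher and 5 lower, with a median of 0.07, and in HFOB against HFLN 4 were higher and 8 lower, with a median of -0.03. Slc27a1 (FATP1), a fatty-acid transport protein, had the highest log2 folds against control, at 80.9 FPKM in HFOB, 77.7 in HFLN and 66.9 in control. Fabp3, the carrier of heart muscle, had the lowest, at 7.06, 6.06 and 10.6 FPKM in HFOB, HFLN and control, with intervals that reach 0 in all 3. In HFOB against HFLN, Fabp3 had the highest log2 fold, 0.19, and Acsl4, which activates arachidonic acid, the lowest, at 29.8 FPKM in HFOB and 36.1 in HFLN. Dbi, which binds acyl-CoA, was the most abundant at 678, 616 and 771 FPKM in HFOB, HFLN and control.

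Of 19 partners of Lpl and receptors of lipoproteins, 16 reached 1 FPKM and none was called. Against control 6 were higher and 10 lower in HFOB, with a median log2 fold of -0.04, and 4 were higher and 12 lower in HFLN, with a median of -0.06. In HFOB against HFLN 7 were higher and 9 lower, with a median of -0.0029. Apoe, the apolipoprotein of remnant particles and the most abundant of the list, stood at 2803 FPKM in HFOB, 1998 in HFLN and 2264 in control. It had the highest log2 fold in HFOB against control and against HFLN, at 0.31 and 0.49. Apoc3, which inhibits Lpl, had the lowest against control in both diet groups, at 6.52, 7.11 and 11.0 FPKM in HFOB, HFLN and control. Sort1 had the highest in HFLN against control, 0.35, at 5.99 FPKM in HFLN and 4.50 in control. Scarb1, the HDL receptor that feeds cholesterol to steroid-making cells, was the second most abundant at 496, 558 and 555 FPKM in HFOB, HFLN and control.

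Named by role and not by that rule, Angptl4, which inhibits Lpl, stood at 130.8 FPKM in HFOB, 121.7 in HFLN and 148.3 in control. Gpihbp1, which carries Lpl to the capillary lumen, stood at 6.71, 5.68 and 7.22 FPKM in the same groups. The ratio of Angptl4 to Lpl was 4.45 in HFOB, 4.71 in HFLN and 6.66 in control, and the ratio of Lpl to Gpihbp1 was 4.38, 4.55 and 3.08. These ratios are set out after their values were seen and carry the width of both intervals.

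**Figure D4:**
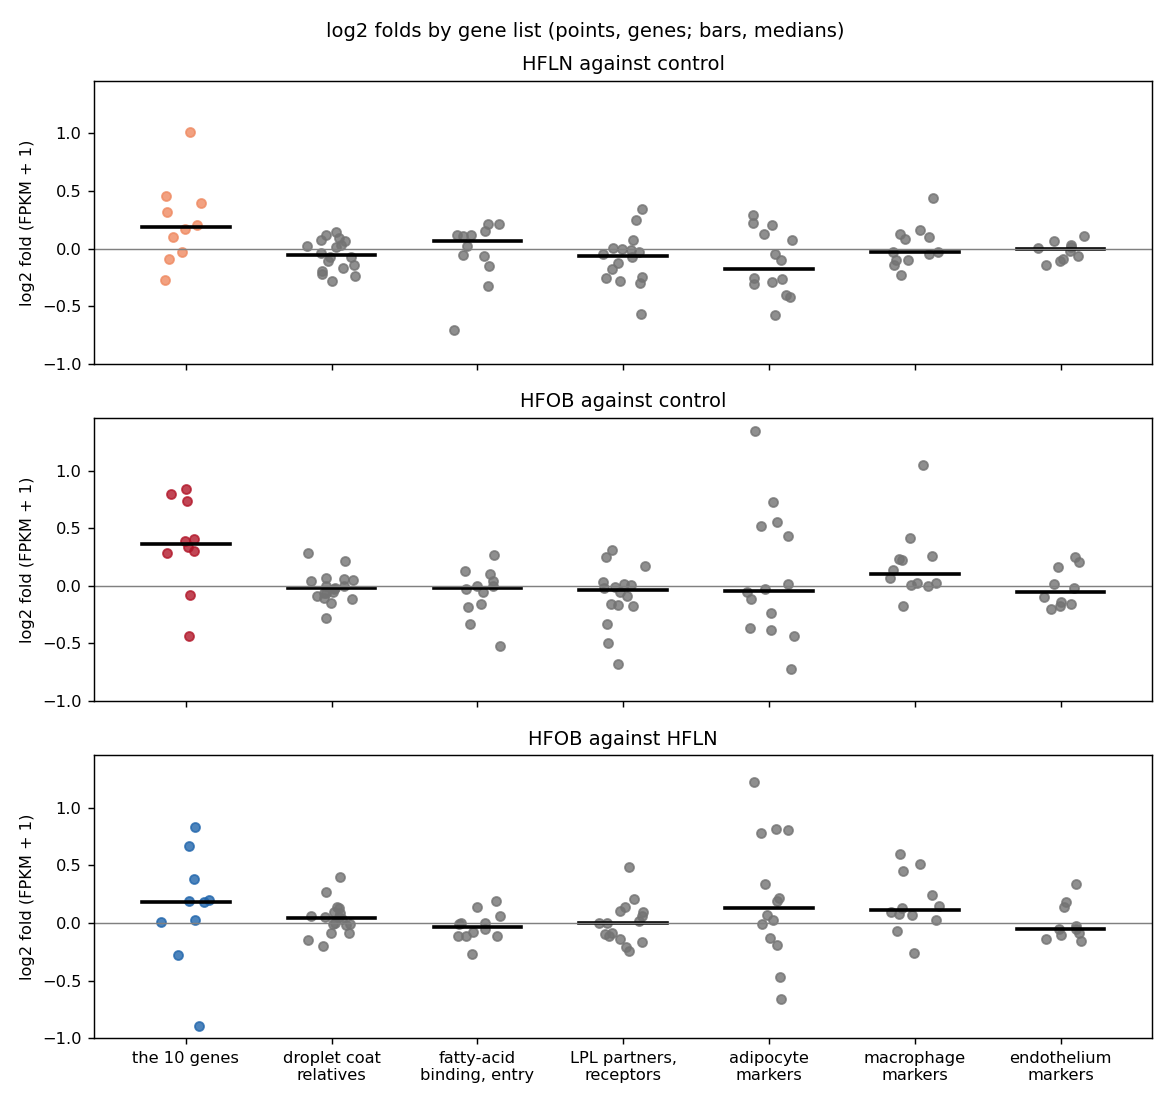
log2 folds on the log2(FPKM + 1) scale of the 10 genes, of 3 lists of related genes and of 3 lists of cell markers, in HFLN against control, HFOB against control and HFOB against HFLN. Points are genes that reached 1 FPKM and bars are medians, which for the 10 genes are 0.19, 0.36 and 0.19 in the panels from top to bottom.

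Several of the 10 genes are made by adipocytes, macrophages or endothelium, and in bulk tissue fewer cells of a type and less RNA per cell cannot be told apart. Of 16 adipocyte markers 14 reached 1 FPKM. In HFOB against control 6 were higher and 8 lower with a median log2 fold of -0.04, in HFLN against control 5 were higher and 9 lower with a median of -0.18, and in HFOB against HFLN 9 were higher and 5 lower with a median of 0.13. Lep, the hormone leptin, was the only marker called, at 2.101 FPKM in HFOB (0.759 to 3.44), 0.332 in HFLN (0.0392 to 0.625) and 0.223 in control (0 to 0.455), in HFOB against each other group. Adipoq, the hormone adiponectin, stood at 21.5 FPKM in HFOB, 11.9 in HFLN and 14.7 in control. Car3, an abundant enzyme of fat tissue, stood at 93.8, 52.8 and 63.4 FPKM, and Pck1, which makes glycerol for triglyceride, at 4.10, 1.97 and 2.07 FPKM, in HFOB, HFLN and control. These 4 were highest in HFOB, and apart from Lep they were chosen after their values were seen. Most of the list was not higher in HFOB than in control, with Retn at 16.4 FPKM in HFOB, 12.8 in HFLN and 19.5 in control, and Cebpa at 46.1, 40.3 and 50.1 FPKM in the same groups. Among the 14 markers that reached 1 FPKM, the HFOB value of 3 (Lep, Car3 and Pck1) exceeded the upper bound of control. With HFLN as the other group, 4 of the 14 exceeded its upper bound (Adipoq, Lep, Car3 and Pck1). In both comparisons 0 lay below the lower bound. The same counts for the 10 genes were 3 and 2 above, so such values were not limited to them. Of the 10 genes, 7 were highest in HFOB (Plin2, Plin4, Cidec, Fabp4, Fabp5, Lpl and Cd36), and the adipocyte coat gene Plin1 was not. Among the 7, Plin4 and Cd36 stood above HFLN by log2 folds of only 0.01 and 0.02, and both signs turned on the rescaled values. Pparg stood at 24.6 FPKM in HFOB, 24.8 in HFLN and 33.6 in control, with intervals that overlap.

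The summed FPKM of the adipocyte markers was 441 in HFOB, 392 in HFLN and 433 in control. Nnat and Cfd had the highest mean levels in the list. Cfd, the secreted factor adipsin, stood at 62.2, 86.4 and 103.4 FPKM in HFOB, HFLN and control with upper bounds of 591, 678 and 744, and without it the sums were 379, 305 and 329.8. Nnat stood at 104.5, 90.0 and 77.1 FPKM in HFOB, HFLN and control. Set against Adipoq, Fabp4 stood at a ratio of 6.49 in HFOB, 7.35 in HFLN and 5.25 in control, and Plin5 at 0.445, 0.991 and 0.363. The ratio of Cidec to Adipoq was 0.511 in HFOB, 0.484 in HFLN and 0.401 in control, and that of Plin1 to Adipoq was 0.572, 0.896 and 0.884. By value, the ratios had no common order: Fabp4, Plin5 and Plin1 were highest in HFLN, Cidec was highest in HFOB, and Plin1 was lowest in HFOB. These ratios carry the width of both intervals, and their orders were not tested. Some rest on close values, such as 0.896 in HFLN and 0.884 in control for Plin1. Of the markers of brown or beige fat, Zic1 was listed at 0 in every group and Ucp1 stood at 0.00676 FPKM in HFOB, 0.00759 in HFLN and 0.0152 in control, and 6 of 12 reached 1 FPKM. The summed FPKM of this list was 84.0, 81.0 and 95.5 in HFOB, HFLN and control, with Cpt1b (in a row merged with Chkb and Gm44502) and Cox7a1 as the most abundant. The part of fat tissue in the values of the 10 genes was not tested.

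Macrophage markers, 12 in all, summed to 906 FPKM in HFOB, 744 in HFLN and 782 in control, and none was called. In HFOB 10 of the 12 were higher than in control and 10 of the 12 higher than in HFLN, and in HFLN 5 were higher than in control. Gpnmb, a glycoprotein of lipid-laden macrophages, stood at 26.4, 17.03 and 12.3 FPKM in HFOB, HFLN and control, the HFOB value above the upper bounds of both other groups. The row of Lyz2, merged with Lyz1, was the most abundant at 337, 236 and 252 FPKM, followed by C1qb at 145, 123 and 132 FPKM. Endothelial markers, 10 in all, summed to 358, 339 and 350 FPKM in HFOB, HFLN and control, with 4 of 10 higher in HFOB than in control and 5 of 10 higher in HFLN than in control. Egfl7 and Cldn5 led them, Cldn5 at 90.4 FPKM in HFOB, 71.3 in HFLN and 75.8 in control.

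Markers of the ovary itself were present in every group. Granulosa markers summed to 1947, 1843 and 2222 FPKM, led by Inha and Amh, and oocyte markers to 201, 194 and 189 FPKM, led by Zp3 and Gdf9, in HFOB, HFLN and control. Luteal and steroidogenic markers summed to 8250, 7744 and 10270 FPKM in the same groups, led by Cyp11a1 and Hsd3b1. Akr1c18, in a row merged with Akr1c12, stood at 1496 FPKM in HFOB, 1084 in HFLN and 2672 in control. The lower bound of Cyp11a1, Hsd3b1 and this merged row was 0 in every group, so the order of the luteal sums was not distinguishable. Smooth muscle markers summed to 425, 374 and 392 FPKM in HFOB, HFLN and control, led by Actg2 and Myh11, and none was called. Of these 6 markers, 5 had a higher value in HFOB than in control and 1 a lower one. All 6 were higher in HFOB than in HFLN, and 3 were higher and 3 lower in HFLN than in control. The median log2 folds were 0.22, 0.21 and -0.0022 in the same comparisons.

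Markers of oviduct-type epithelium had the widest median log2 folds of the 9 marker lists in all 3 comparisons. All 6 had a higher value in HFLN than in control, with a median log2 fold of 0.68, and Foxj1, Sec14l3 and Dnah5 exceeded the upper bound of control. All 6 had a lower value in HFOB than in HFLN, with a median of -1.15, and Foxj1, Tmem212, Sntn and Sec14l3 lay below the lower bound of HFLN. All 6 were also lower in HFOB than in control, with a median of -0.29. None was called. Foxj1, a regulator of motile cilia, stood at 15.6 FPKM in HFOB, 33.5 in HFLN and 19.4 in control. Ovgp1, the oviduct glycoprotein, stood at 306.6, 431.7 and 368.5 FPKM in the same groups and made up most of the summed FPKM of 345, 526 and 424. Of the 10 genes, Plin5 and Cidea also had their highest value in HFLN. The intervals of both overlap between groups, and those of Cidea all reach 0, so its order was not distinguishable. The part of any of these cells in the values of the 10 genes was not tested.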

How the data were processed

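The submitters' processing notes name these tools: Trimmomatic (0.32.3), TopHat2 (2.1.0), Cufflinks (2.2.1.0), Cuffdiff (2.2.1.3). The build named there is mm10. Per the file headers, the FPKM were deposited by the authors as 1 value per gene and group, together with bounds and a status flag. No source used here gives the annotation, how sure the bounds are, the library scaling, the counting strand or the depth. A linear model had been planned for single mice, and because the table holds group values the planned rule without a test took its place.

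RefSeq for GRCm38.p6, the assembly of mm10, held 99.2% of the 36886 transcript identifiers. Where a symbol had several rows, the most abundant on average stood for it. Coordinates are RefSeq gene spans counted from 1. Runs shared between transcripts and overlaps of strands came from GENCODE. A row needed 1 FPKM in any group and an OK flag on both sides of a comparison, and folds used a pseudocount of 1 FPKM. All rows went through the rule together, and it was tested on simulated data. The work used Python 3.11.15 and pandas 2.3.3.

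The genes and lists were chosen with earlier results of these data known. Named from each list of related genes were those called, those with the highest and lowest log2 fold per comparison and the 2 most abundant, and from each marker list those called, the 2 most abundant and those at 0. A gene that this rule names in the list of Lpl partners is not reported here. Other genes were chosen after their values were seen.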

Additional observations from a re-analysis of the deposited data

How the results depend on the processing

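For the counts of rows called in HFLN against control, HFOB against control and HFOB against HFLN, a pseudocount of 5 FPKM gave 27, 33 and 20, and leaving the intervals out of account gave 249, 216 and 208. Counting values outside the interval of the other group, an alternative added after the data were seen, gave 299, 270 and 297 rows, and 1, 3 and 2 of the 10 genes. Without the intervals 1 of the 10, Plin5, was called in HFLN against control. The other alternatives stayed within 1.5 times the counts given and left 0 of the 10 genes called: a pseudocount of 0.1 FPKM, no minimum or a minimum of 5 FPKM (which Cidea does not reach), centring, rescaling to protein-coding rows and a fold of 1.5. Because the intervals of all 10 genes overlap, a change of pseudocount, minimum, fold or centring could not have called any of them. Only rescaling also moved the bounds. Of 210 log2 folds of the 10 genes under alternatives, 5 had another sign, all 5 under rescaling. The 210 include settings that could not change a fold. The minimum FPKM does not enter a fold, and summing all rows of a symbol changes nothing where each gene has 1 row. For Fabp4 in HFOB against control the log2 fold ran from 0.81 to 0.94, for Cidec from 0.55 to 0.93 and for Plin5 from 0.49 to 0.87, and for Plin5 in HFLN against control from 0.70 to 1.28. No paired analysis was possible because the columns hold 1 value per group, and leaving out single mice could not be run for the same reason. The width of the deposited intervals limits every comparison, and the number of reads behind them is unknown.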

Other observations

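The genes for Plin4, Plin5 and Plin3 lie near each other on chromosome 17, Plin4 at 56100587 to 56109948, Plin5 at 56111597 to 56117606 and Plin3 at 56278962 to 56290511. Their log2 folds in HFLN against control were 0.40, 1.01 and 0.12, in HFOB against control 0.40, 0.73 and 0.21, and in HFOB against HFLN 0.01, -0.28 and 0.09. Fabp5 and Fabp4 flank Pmp2 and Fabp9 on chromosome 3, followed by Fabp12. Pmp2, the binding protein of myelin, was listed at 0 FPKM in HFOB, 0 in HFLN and 0.0217 in control. Fabp9, a carrier of the testis, was listed at 0, 0.0221 and 0.0592 FPKM, and Fabp12 at 0.00359, 0 and 0 FPKM, in the same groups. Within this cluster, ovarian RNA thus held Fabp4 and Fabp5 at 47.6 FPKM or more in every group and the 3 other genes at 0.0592 FPKM or less. These genes were chosen after their values were seen.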
